A study of Mus musculus with 15 samples.

Results

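D218G and R216W are amino acid changes in GATA1, the transcription factor that drives red cell and megakaryocyte maturation. Expression in 3 arrays of cells carrying the D218G protein was compared directly with expression in 3 arrays of cells carrying the R216W protein, 6 of the 15 arrays of the series. The 6 arrays were taken by their titles. The pair was picked because these lines lay at opposite ends of the second principal component over all arrays (16.95% of the variance), so a wide difference between them was part of how they were chosen. G1E cells are an immature mouse erythroid line that lacks functional GATA1. The D218G cells expressed GATA1(D218G)-ER and the R216W cells expressed GATA1(R216W)-ER, each a fusion of the mutant protein with an estrogen receptor domain that estradiol switches on. Lines with GATA1(R216Q)-ER, GATA1(D218Y)-ER or unchanged GATA1-ER (wild type), 3 arrays each, were used for levels beside the pair. Every culture, the wild type included, had received 100 nM estradiol for 24 hours, and untreated cells were not analysed here. The labels do not say how many lines or pools were transduced with each construct, so line and mutation cannot be told apart.

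GATA1 binds DNA through its carboxy-terminal zinc finger, and its amino-terminal finger steadies binding at some sites and holds the cofactor FOG1 (gene Zfpm1). Both changed residues lie close together in the amino-terminal finger. During maturation GATA1 takes the place of the related factor GATA2 at shared sites, represses genes of the progenitor state and activates genes for globin, haem synthesis and the red cell membrane. Changes at R216 and D218 are known in people with inherited low platelet counts and disordered red cell formation, and R216W was also described in congenital erythropoietic porphyria, a disease of low uroporphyrinogen III synthase (gene Uros).

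Values are log2 expression levels, so a difference of 1 is 2-fold. A gene is called higher or lower when its adjusted p was under 0.05 (limma, Benjamini-Hochberg adjustment over 19933 genes). The cells carried their erythroid label: the 9 of 10 erythroid markers measured (Slc4a1, Epor, Klf1, Tfrc, Alas2, Ermap, Rhag, Kel and Gata1) lay between 10.90 and 12.38 in the 6 arrays, each above at least 94.5% of all genes. Gata1, the highest of them at 12.38, is made from the introduced construct. Its level was therefore set by the design and does not speak for the cell type. The D218G arrays spread more than the R216W arrays, with a median standard deviation per gene of 0.079 in D218G and 0.050 in R216W. D218G replicate 3 stood apart: its median level over all genes was 6.37, against 6.51 and 6.55 in D218G replicates 1 and 2. Counts without it are given wherever it moved them by over 1.5 times.

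Gata1 itself, measured at 12.35, 12.33 and 12.38 in D218G and 12.24, 12.25 and 12.26 in R216W, differed by 0.10 (SE 0.030, adjusted p = 0.0209), a 1.07-fold difference. The arrays did not overlap, and the exact permutation test on these 6 arrays (two-sided) returned p = 0.1, which is the lowest value that 3 arrays a line can give. The call was lost when D218G replicate 1 (adjusted p = 0.0546), D218G replicate 3 (adjusted p = 0.0562) or R216W replicate 1 (adjusted p = 0.0688) was left out. Wild type was at 12.36 ± 0.0080 (SD, n = 3). All these cells make Gata1 from an introduced construct, so its level reflects that construct in each line. The cofactor gene Zfpm1 did not pass (difference 0.10 (SE 0.035, adjusted p = 0.0585)), nor did Klf1, which encodes the erythroid factor that works beside GATA1 at globin genes (difference 0.07 (SE 0.037, adjusted p = 0.266)).

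Of 19933 genes, 4387 (22%) passed between D218G and R216W, 2260 (11.3%) higher and 2127 (10.7%) lower in D218G. Among the 9966 genes above the median level, 41.3% passed. The 3 arrays of each line did not overlap for 6116 genes (30.7%). At 2-fold or more there were 175 genes (0.878%), of which 63 (0.316%) were higher and 112 (0.562%) lower in D218G. The median difference over all genes was near 0, at -8e-04. The smallest called difference was 0.09 on the log2 scale. Whole cultures were measured, so fewer cells making an RNA and less of it per cell cannot be told apart. The larger side among all calls was not stable: without D218G replicate 3 there were 2313 higher and 2463 lower, and without R216W replicate 1 there were 1835 higher and 1974 lower. At 2-fold or more the lower side stayed the larger one in those fits, with 57 higher and 127 lower without D218G replicate 3, and 62 higher and 113 lower without R216W replicate 1.

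**Figure D1:**
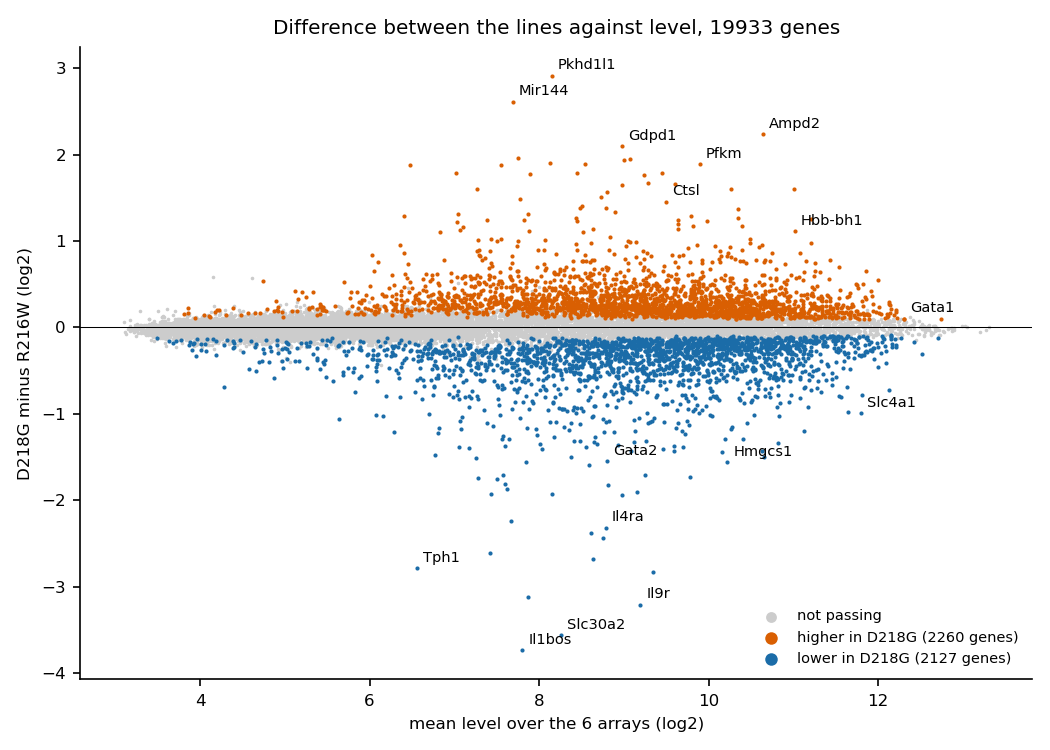
Difference between D218G and R216W (log2, vertical axis) against the mean level over the 6 arrays (log2, horizontal axis) for 19933 genes, 1 point each. Orange points are the 2260 genes higher and blue points the 2127 genes lower in D218G; the widest differences, such as Pkhd1l1 at 2.91 and Il1bos at -3.74, were seen at middle levels.

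The widest falls in D218G included genes of receptors and transporters. Il9r, the receptor chain for interleukin-9, was at 7.48, 7.67 and 7.62 in D218G, against 10.81, 10.76 and 10.82 in R216W, a level 9.24-fold lower in D218G (difference -3.21 (SE 0.046, adjusted p = 8.72e-15)). Il4ra, the interleukin-4 receptor chain, was at 7.67, 7.67 and 7.54 in D218G, against 9.84, 10.03 and 9.96 in R216W (difference -2.32 (SE 0.061, adjusted p = 1.65e-12)). For both genes every D218G array lay below every R216W array by more than 2 log2 units. Wild type lay between the lines for Il9r, at 9.01 ± 0.025, and close to D218G for Il4ra, at 7.76 ± 0.042 (SD, n = 3). The zinc transporter gene Slc30a2 was at 6.67, 6.41 and 6.35 in D218G, against 10.01, 10.001 and 10.09 in R216W (difference -3.56 (SE 0.081, adjusted p = 4.93e-13)). For Slc30a2 the D218G level was near wild type, at 6.64 ± 0.17, and did not pass against it in the same fit (adjusted p = 0.218). The other mutants were near R216W, R216Q at 10.03 ± 0.037 and D218Y at 9.52 ± 0.0005 (SD, n = 3 each). The water channel genes Aqp8 (difference -2.68 (SE 0.058, adjusted p = 3.01e-13)) and Aqp3 (difference -2.38 (SE 0.046, adjusted p = 1.24e-13)) and the carnitine transporter family gene Slc22a4 (difference -2.44 (SE 0.057, adjusted p = 5.95e-13)) were also lower in D218G. Slc22a4 averaged 9.97 ± 0.034 in R216W, beside 9.95 ± 0.092 in wild type (SD, n = 3 each).

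The promoter of Il9r is shown because this was the gene with the smallest adjusted p among the named genes and its window held 2 copies of a GATA motif. The sequence runs 5′ to 3′ on the gene's own strand, from 250 bases before to 50 bases after the annotated start (RefSeq, GRCm38.p6), at chr11:32200230-32200529 on the minus strand. Capitals mark AGATAA or its other-strand form TTATCT.
Il9r: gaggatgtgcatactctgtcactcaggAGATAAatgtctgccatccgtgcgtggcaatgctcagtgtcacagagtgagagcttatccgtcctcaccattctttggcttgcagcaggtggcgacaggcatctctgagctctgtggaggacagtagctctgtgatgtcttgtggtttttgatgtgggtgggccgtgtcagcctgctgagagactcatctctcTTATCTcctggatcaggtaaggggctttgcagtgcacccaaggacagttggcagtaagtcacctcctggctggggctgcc
Of 32851 promoters of that length in the table, 11.2% held AGATAA on either strand. Among the 15 widest falls it was in 2 of the 13 genes with a promoter listed, and among the 15 widest rises in 3 of 9. A match of letters describes the sequence and does not show a bound site.

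Other wide falls were in enzymes and signalling genes. Tph1, the rate-limiting enzyme of serotonin synthesis outside the brain, was at 5.19, 5.22 and 5.07 in D218G, against 8.02, 7.97 and 7.86 in R216W (difference -2.79 (SE 0.072, adjusted p = 1.55e-12)). Wild type was near D218G, at 5.30 ± 0.11, and D218G did not pass against it in the same fit (adjusted p = 0.268). R216Q, at 7.87 ± 0.13, and D218Y, at 8.60 ± 0.065, were high as R216W was (SD, n = 3 each). The D218G values of Tph1 sat in the low range of these arrays, where a fold change is understated. Pla2g4c, a cytosolic phospholipase (difference -3.12, SE 0.064), the mitotic kinase gene Nek6 (difference -2.83, SE 0.072), Rgs18, a brake on G protein signalling in platelets (difference -2.61, SE 0.11), Art4, which carries the Dombrock blood group (difference -1.94, SE 0.046), and the uridine phosphorylase gene Upp1 (difference -1.93, SE 0.10) were lower as well. The remaining genes among the 15 widest falls were Il1bos, Frmpd1 and Cpne7, with differences of -3.74, -2.24 and -1.93. Il1bos is annotated opposite Il1b, the gene of interleukin-1 beta, which was itself lower in D218G by a difference of -1.23 (SE 0.10). Il1b was picked for this comparison after its value was seen.

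The widest rise of all genes tested was Pkhd1l1, a large membrane protein gene, at 9.56, 9.55 and 9.71 in D218G, against 6.73, 6.65 and 6.70 in R216W (difference 2.91 (SE 0.057, adjusted p = 1.24e-13)), 7.53-fold higher in D218G. Of the enzyme genes among the 15 widest rises, Ampd2, an AMP deaminase, was at 11.76, 11.77 and 11.74 in D218G, against 9.49, 9.54 and 9.54 in R216W (difference 2.23 (SE 0.049, adjusted p = 3.5e-13)). Pfkm, the muscle form of the glycolytic enzyme phosphofructokinase, was at 10.81, 10.83 and 10.88 in D218G, against 8.93, 8.95 and 8.98 in R216W (difference 1.89 (SE 0.037, adjusted p = 1.24e-13)). The arrays of the lines were far from overlapping for all 3 genes. Further rises were seen in Gdpd1 (difference 2.10), the kinase gene Mylk3 (1.96), Phlda1 (1.95), Sapcd1 (1.94), Ppp2r5b, a regulatory subunit of phosphatase PP2A (1.90), Decr2, a peroxisomal enzyme of fatty acid breakdown (1.90), Fhdc1 (1.88), Ephx2, an epoxide hydrolase (1.88), Tcn2, the carrier of vitamin B12 (1.79), Lonrf2 (1.79), Arhgap23 (1.79) and the mitochondrial nucleoside diphosphate kinase gene Nme4 (1.76). Their standard errors were between 0.034 and 0.125. Ephx2 and Fhdc1 varied most among the D218G arrays, Ephx2 being at 7.33, 7.12 and 7.79 and Fhdc1 at 8.56, 8.18 and 8.75, but neither reached the R216W range.

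In all 15 of the widest rises and all 15 of the widest falls the wild type mean lay between the means of the mutant lines, and so did the R216Q mean. The wild type mean was nearer to D218G in 10 of the 15 rises and in 8 of the 15 falls. The genes were ranked on the difference between these lines, so lines in between are described here and not tested.

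**Figure D2:**
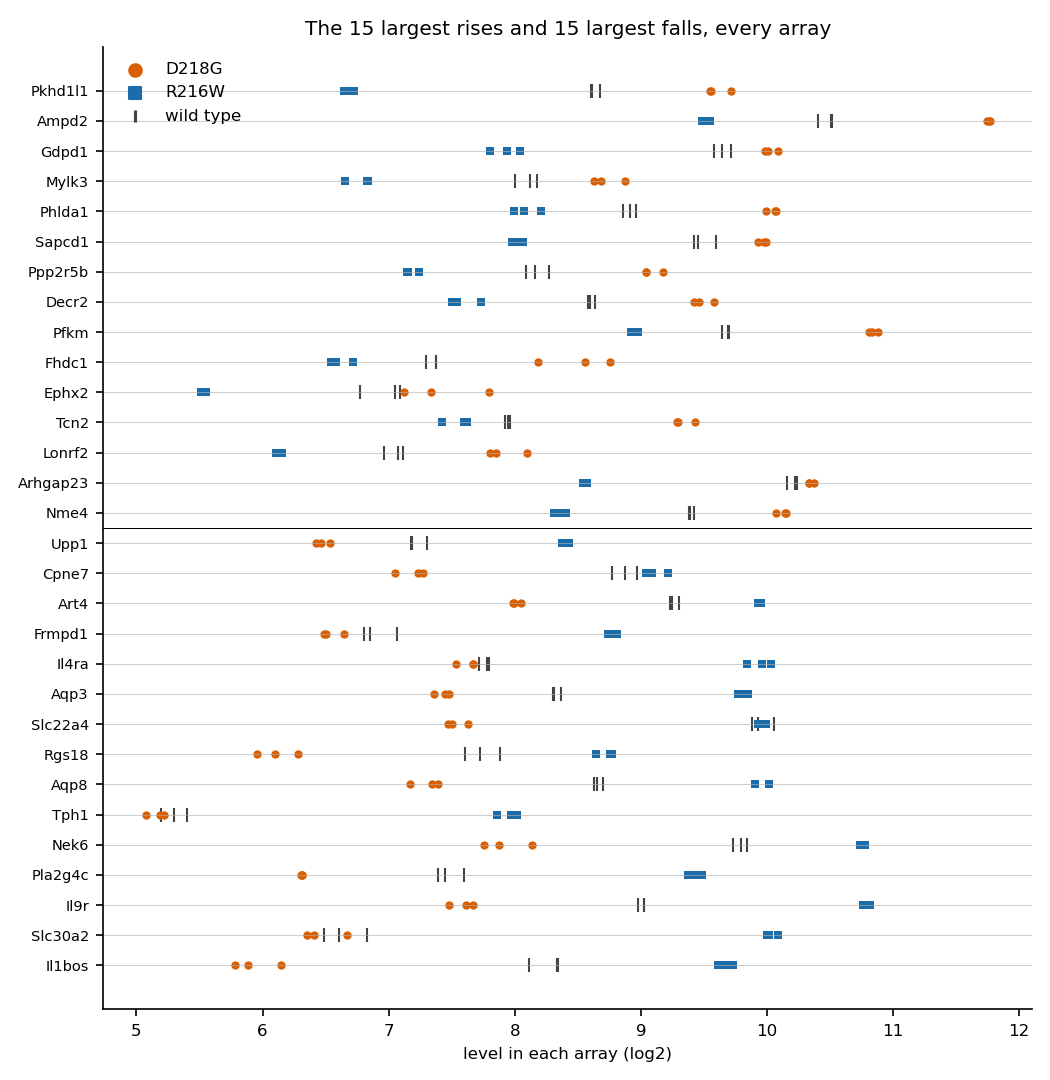
Level (log2, horizontal axis) in every array of D218G (orange circles), R216W (blue squares) and wild type (grey bars) for the 15 widest rises (upper block) and the 15 widest falls (lower block). The D218G and R216W arrays do not overlap for any of these genes; Il9r lies between 7.48 and 7.67 in D218G and between 10.76 and 10.82 in R216W.

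A pair of erythroid microRNA genes also moved, chosen for description after their values were seen. The probe set of Mir144 was at 8.89, 8.80 and 9.29 in D218G, against 6.43, 6.27 and 6.45 in R216W (difference 2.61 (SE 0.19, adjusted p = 9.61e-08)). Mir451a, its neighbour in the same cluster, was at 8.68, 8.81 and 8.87 in D218G, against 7.04, 6.94 and 7.04 in R216W (difference 1.78 (SE 0.12, adjusted p = 5.2e-08)). Wild type lay between the lines for both, nearer to D218G, at 8.41 ± 0.17 for Mir144 and 8.21 ± 0.17 for Mir451a (SD, n = 3). The cluster is a known GATA1 target, and miR-451 is needed for red cells to withstand oxidant stress in mice. The array reports RNA of these genes and not the mature microRNAs.
The mature sequences (RefSeq, GRCm38.p6, chromosome 11, plus strand) show which seeds the cluster carries. Capitals mark the seed, bases 2 to 8, and the 3 seeds differ from each other. They lie at chr11:78073010-78073032, chr11:78073047-78073066 and chr11:78073186-78073207 in the order given.
mmu-miR-144-5p: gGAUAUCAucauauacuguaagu
mmu-miR-144-3p: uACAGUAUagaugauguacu
mmu-miR-451a: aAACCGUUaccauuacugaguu

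Genes of cholesterol synthesis were lower in D218G almost throughout the pathway. Of 17 measured members of the sterol synthesis list, 15 were lower and 0 higher in D218G, beside 10.7% lower among all genes, and the median difference of the list was -0.61. Hmgcs1, which makes the HMG-CoA that feeds the pathway, was at 9.44, 9.35 and 9.53 in D218G, against 10.99, 11.04 and 10.96 in R216W (difference -1.55 (SE 0.051, adjusted p = 1.7e-11)), 2.94-fold lower in D218G. Cyp51, the lanosterol demethylase, was at 8.73, 8.69 and 8.93 in D218G, against 9.85, 9.89 and 9.87 in R216W (difference -1.09 (SE 0.059, adjusted p = 3.61e-09)). No D218G array reached the R216W range for either gene. Idi1, which isomerises the isoprenoid unit (difference -0.97, SE 0.058), Fdft1, squalene synthase (difference -0.80, SE 0.050), Mvd, the mevalonate diphosphate decarboxylase (difference -0.77, SE 0.044), and Msmo1, a sterol oxidase (difference -0.71, SE 0.037), followed. Only Tm7sf2 (difference -0.03 (SE 0.070, adjusted p = 0.864)) and Ebp (difference -0.01 (SE 0.041, adjusted p = 0.92)) did not pass. Averaged over the list, each D218G array was at 9.55 to 9.65, each R216W array at 10.12 to 10.18 and each wild type array at 9.98 to 9.997. Set against wild type with the same 15-array fit, 14 members were lower in D218G (7.77% of all genes were) and 0 higher, and 9 were higher in R216W (9.36% of all genes were) and 0 lower. Those comparisons share the wild type arrays. Leaving out any array of the pair kept between 13 and 15 members lower.

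Genes that control sterol supply moved less evenly. Of 19 measured members of the uptake, sensing and export list, 6 were lower and 1 higher in D218G. That is 36.8% called, beside 22% of all genes and 41.3% of the genes above the median level. Nceh1, which frees cholesterol from its stored esters, was at 6.57, 6.62 and 6.87 in D218G, against 8.50, 8.53 and 8.62 in R216W (difference -1.86 (SE 0.077, adjusted p = 1.98e-10)). Scap (difference -0.80) and Insig1 (difference -0.52), which escort and retain the sterol-sensing factor SREBP, and Srebf2, which encodes that factor (difference -0.24), were lower, as were Stard4 (difference -0.50) and Osbpl1a (difference -0.50), which carry sterols inside the cell. Nceh1 differs from the synthesis genes in its wild type level, 6.33 ± 0.11 (SD, n = 3), which lay below both mutant lines. The higher member, Npc2 (difference 0.14, adjusted p = 0.0219), lost its call when D218G replicate 2, D218G replicate 3, R216W replicate 1 or R216W replicate 3 was left out.

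The promoters of 3 sterol synthesis genes are shown because these genes had the largest falls of the pathway and CCAAT, the motif of factor NF-Y, which works beside SREBP at sterol genes, recurred in them. Each runs 5′ to 3′ on the gene's strand, from 250 bases before to 50 after the start (RefSeq, GRCm38.p6): Hmgcs1 at chr13:119690101-119690400 on the plus strand, Cyp51 at chr5:4104648-4104947 on the minus strand and Idi1 at chr13:8885356-8885655 on the plus strand. Capitals mark CCAAT (or ATTGG, its other strand) and TCACNCCAC (or GTGGNGTGA), a form of the sterol regulatory element.
Hmgcs1: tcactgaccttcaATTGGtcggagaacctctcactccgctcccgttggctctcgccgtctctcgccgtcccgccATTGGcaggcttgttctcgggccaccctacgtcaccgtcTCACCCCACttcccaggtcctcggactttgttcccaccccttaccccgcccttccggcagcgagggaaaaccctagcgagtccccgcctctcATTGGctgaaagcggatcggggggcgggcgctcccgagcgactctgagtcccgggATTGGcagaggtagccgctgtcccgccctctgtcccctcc
Cyp51: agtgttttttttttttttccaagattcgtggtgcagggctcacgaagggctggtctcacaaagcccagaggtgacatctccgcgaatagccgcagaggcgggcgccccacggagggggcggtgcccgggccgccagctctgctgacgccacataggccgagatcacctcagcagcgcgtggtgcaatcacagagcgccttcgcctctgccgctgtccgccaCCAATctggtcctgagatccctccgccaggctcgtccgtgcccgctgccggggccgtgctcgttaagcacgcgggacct
Idi1: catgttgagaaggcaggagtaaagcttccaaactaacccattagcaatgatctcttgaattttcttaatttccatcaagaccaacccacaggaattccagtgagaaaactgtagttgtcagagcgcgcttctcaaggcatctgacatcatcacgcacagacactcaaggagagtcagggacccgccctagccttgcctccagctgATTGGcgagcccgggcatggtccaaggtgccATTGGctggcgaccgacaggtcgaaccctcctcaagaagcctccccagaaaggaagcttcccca
The Hmgcs1 window held 4 CCAAT and 1 TCACNCCAC, the Cyp51 window 1 CCAAT and the Idi1 window 2 CCAAT, and no printed matches overlapped. CCAAT was in the promoter of all 14 measured sterol synthesis genes with a promoter listed, beside 41.7% of the 15610 tested genes that had one and 37.4% of all promoters. TCACNCCAC was in 1 of the 14, beside 1.4% of those tested genes and 1.24% of all promoters, and AGATAA was in 0 of the 14, beside 10.8% of those tested genes. CCAAT was in 7 of 28 ribosome biogenesis genes with a promoter listed.

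Genes for building ribosomes moved the other way. Of 34 measured members of the ribosome biogenesis list, 29 were higher and 0 lower in D218G, beside 11.3% higher among all genes, with a median difference of 0.30. Odc1, the rate-limiting enzyme of polyamine synthesis, was at 11.53, 11.45 and 11.54 in D218G, against 10.63, 10.66 and 10.63 in R216W (difference 0.87 (SE 0.038, adjusted p = 4.43e-10)). Srm, spermidine synthase, was at 11.58, 11.60 and 11.55 in D218G, against 10.90, 10.93 and 10.95 in R216W (difference 0.66 (SE 0.046, adjusted p = 5.88e-08)). These polyamine genes led the list, and the members at the nucleolus changed by less. Among them were Nolc1 (difference 0.58), Rrp9 (0.55), the RNA polymerase I subunit gene Polr1b (0.55) and Nop56, of the complexes that modify ribosomal RNA (0.50). The abundant nucleolar protein genes Npm1 (difference -0.04), Fbl (0.05) and Ncl (0.05) did not pass. All 34 measured members were higher in D218G than in wild type, beside 10.3% of all genes, while R216W had 10 higher and 2 lower than wild type, beside 9.36% higher and 7.23% lower among all genes. The mean level of the list lay between 10.36 and 10.41 in D218G, between 10.003 and 10.08 in R216W and between 9.97 and 9.99 in wild type. The high level was not particular to D218G: R216Q lay between 10.35 and 10.38 and D218Y between 10.897 and 10.90. Against R216Q, 6 members were higher and 4 lower in D218G, beside 1369 higher and 1299 lower of 19933 genes. In R216W 0 were higher and 30 lower than in R216Q, beside 1644 higher and 1725 lower of all genes. Myc, which drives this programme in many cells, was at 11.25, 11.28 and 11.32 in D218G, against 10.57, 10.72 and 10.73 in R216W (difference 0.61 (SE 0.046, adjusted p = 1.2e-07)). Leaving out any array of the pair kept between 26 and 30 members higher.

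**Figure D3:**
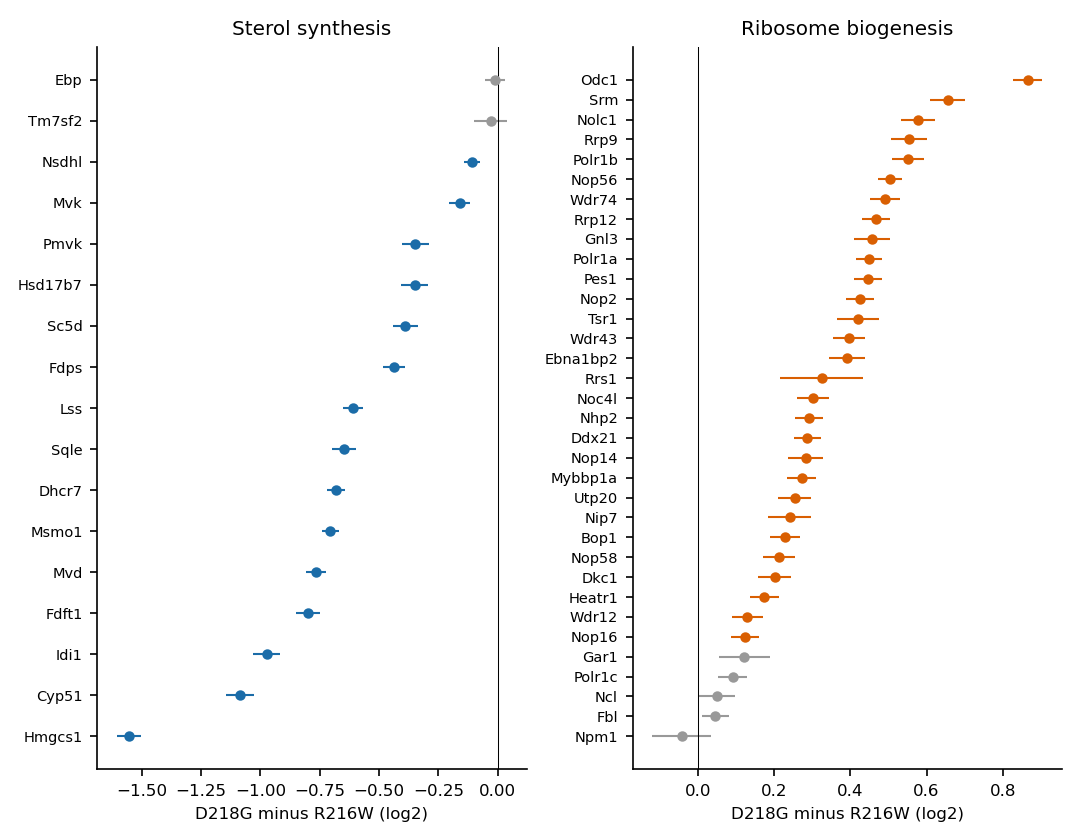
Difference between D218G and R216W (log2, horizontal axis; bars are 1 standard error of the fit) for the 17 measured sterol synthesis genes (left) and the 34 measured ribosome biogenesis genes (right). Blue marks lower and orange higher in D218G past the threshold, grey not past it; 15 sterol genes lie on the lower side and 29 ribosome genes on the higher side.

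Genes that restrain the cell cycle were mostly lower in D218G, 14 of 22 measured members, with 2 higher and a median difference of -0.23. Ccng2, a cyclin linked to arrest, was at 7.92, 7.83 and 8.18 in D218G, against 9.27, 9.33 and 9.32 in R216W (difference -1.33 (SE 0.087, adjusted p = 2.58e-08)). Gadd45a, a stress-induced brake on division, was at 8.98, 9.08 and 9.04 in D218G, against 10.10, 10.33 and 10.17 in R216W (difference -1.16 (SE 0.057, adjusted p = 1.27e-09)). Both genes separated the lines in every array, by about 1 log2 unit or more. The CDK inhibitor genes Cdkn2c (difference -0.43), Cdkn1b (-0.31) and Cdkn2d (-0.24), the antiproliferative genes Btg2 (-0.61) and Btg1 (-0.31), and Zfp36 (-0.86) and Sesn1 (-0.79) were lower too. Tob2 (difference 0.21) and Gadd45b (0.32) were higher in D218G. Of 27 S phase genes 8 were higher and 2 lower, led by Ccne1, the cyclin of entry into DNA replication, at 11.63, 11.63 and 11.63 in D218G and 10.81, 10.91 and 10.92 in R216W (difference 0.75 (SE 0.038, adjusted p = 1.75e-09)). Of 27 mitosis genes 7 were higher and 3 lower, led by Cdc20, an activator of the anaphase-promoting complex (difference 0.36). The mitosis count of higher genes was 4 without R216W replicate 1. The shares called were 72.7% of the restraint list and 37% each of the S phase and mitosis lists. Over all genes 22% were called (11.3% higher and 10.7% lower). Since most cell cycle genes are bright on the arrays, the 41.3% called among genes above the median is the closer background for these counts. The S phase and mitosis shares lay below it.

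The GATA factors and their partners differed one by one. Gata2 was at 7.99, 8.02 and 8.06 in D218G, against 9.51, 9.59 and 9.61 in R216W (difference -1.54 (SE 0.043, adjusted p = 2.69e-12)), 2.92-fold lower in D218G. Wild type was at 8.31 ± 0.081 and R216Q at 9.48 ± 0.0040 (SD, n = 3), so D218G lay nearest to wild type and R216W nearest to R216Q among these lines. The complex partners Ldb1 (difference 0.36) and Lmo2 (0.30) and the repressor Gfi1b (0.36) were higher in D218G, and Tal1 (-0.22) and Nfe2 (-0.28) were lower. None of these differences reached 1.3-fold. Over the 31 erythroid regulators 10 were higher and 10 lower in D218G. That is 64.5% called, beside 22% of all genes and 41.3% of the genes above the median level. The largest were Id1, an inhibitor of helix-loop-helix factors, at 9.10, 9.22 and 9.22 in D218G and 7.71, 7.77 and 7.90 in R216W (difference 1.39 (SE 0.052, adjusted p = 7.83e-11)), and Ube2o, which marks ribosomes for removal in reticulocytes, at 8.34, 8.30 and 8.46 in D218G and 9.82, 9.75 and 9.81 in R216W (difference -1.43 (SE 0.046, adjusted p = 1.34e-11)). E2f4 was higher (difference 0.79) and Tspo2 lower (difference -0.91).

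Genes of the progenitor state split. Of 28 measured, 9 were lower and 5 higher in D218G, with a median difference of -0.05. That is 50% called, beside 22% of all genes (11.3% higher and 10.7% lower) and 41.3% of the genes above the median level. Beside Gata2 the lower members included Runx1, a master factor of blood stem cells, at 10.31, 10.33 and 10.39 in D218G and 11.22, 11.31 and 11.28 in R216W (difference -0.93 (SE 0.036, adjusted p = 1.04e-10)), and Lmo4 (difference -0.88), Hhex (-0.61), Ikzf1 (-0.46) and the stem cell factor receptor gene Kit (-0.29). Beside Myc the higher members included Fli1, a factor of the megakaryocyte branch, at 7.83, 7.70 and 7.88 in D218G and 6.97, 7.14 and 7.06 in R216W (difference 0.75 (SE 0.068, adjusted p = 9.52e-07)), and Myb (difference 0.52) and Cd44 (0.45). Spi1, which opposes GATA1 in blood cell fate, did not pass (difference -0.00 (SE 0.095, adjusted p = 0.989)). Among 26 cytokine receptor and signalling genes 8 were lower and 3 higher, or 42.3% called, near the share of the genes above the median level. Apart from Il9r and Il4ra the largest was Csf2rb2, a receptor beta chain, higher in D218G (difference 0.86 (SE 0.043, adjusted p = 1.6e-09)). Its near-identical neighbour Csf2rb differed by 0.13, and array signal can be shared between such copies.

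**Figure D4:**
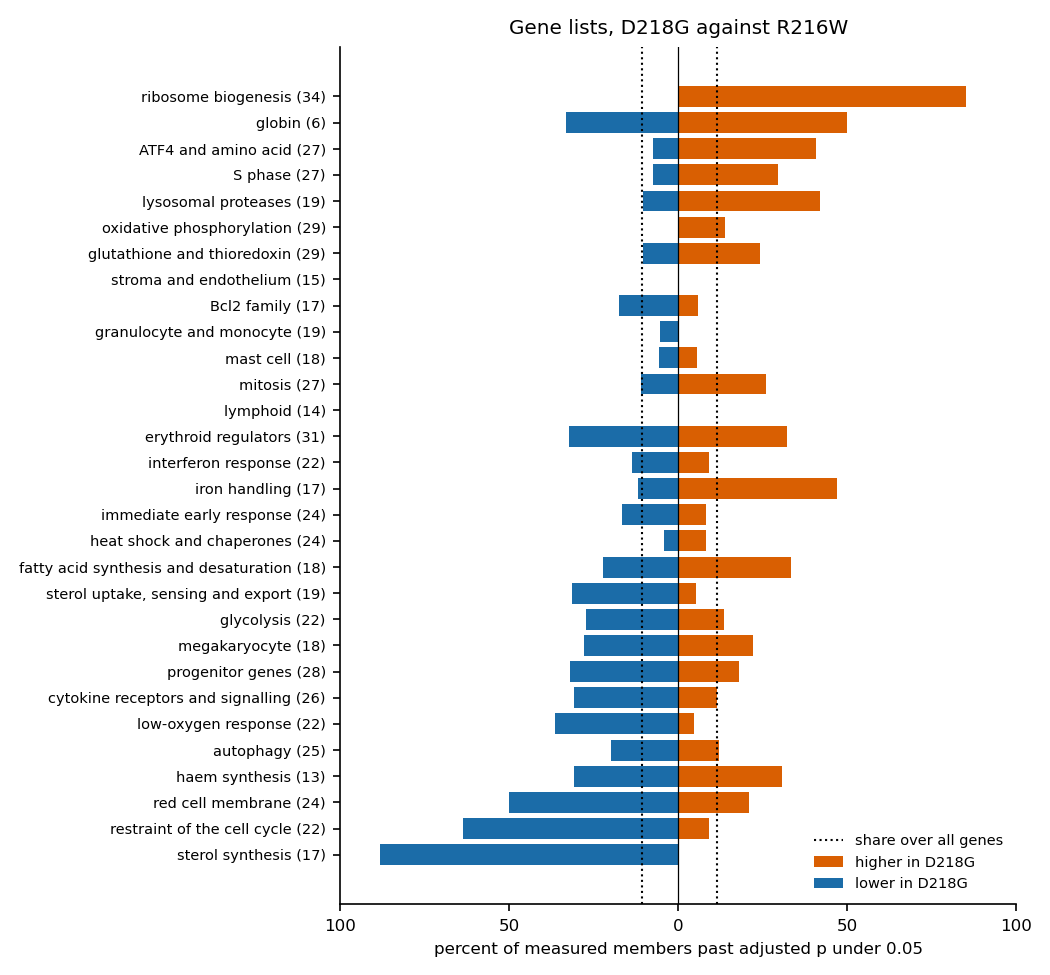
Percent of the measured members of each of 30 gene lists (number measured in brackets) that were higher (orange, to the right) or lower (blue, to the left) in D218G than in R216W, with lists ordered by their median difference. Dotted lines mark the shares over all genes, 11.3% higher and 10.7% lower; ribosome biogenesis reaches 29 of 34 to the right and sterol synthesis 15 of 17 to the left.

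The genes of haem and iron did not move as a block. Of 13 measured haem synthesis genes 4 were higher and 4 lower in D218G, with a median difference of -0.09. The shares called were 61.5% of the haem synthesis list and 58.8% of the iron handling list. Over all genes 22% were called (11.3% higher and 10.7% lower), and 41.3% of the genes above the median level. Ppox, protoporphyrinogen oxidase, was at 10.995, 10.97 and 11.04 in D218G, against 10.03, 9.98 and 9.92 in R216W (difference 1.03 (SE 0.040, adjusted p = 1.04e-10)), 2.04-fold higher in D218G. Uros was at 10.31, 10.25 and 10.36 in D218G, against 9.86, 9.84 and 9.88 in R216W (difference 0.45 (SE 0.036, adjusted p = 2.17e-07)). Wild type was above both lines for Uros, at 10.72 ± 0.020, while its Ppox level, 10.73 ± 0.010 (SD, n = 3 each), lay between them. The low Uros level was not particular to R216W: R216Q was near it, at 9.85 ± 0.030, and D218Y was lower, at 9.07 ± 0.022 (SD, n = 3 each). Slc25a38, the mitochondrial glycine carrier of the pathway, was higher (difference 0.49), and Slc25a39, a mitochondrial glutathione carrier, was lower (difference -0.56). Urod was lower (difference -0.26), and Alas2, the rate-limiting erythroid enzyme, did not pass (difference -0.14 (SE 0.058, adjusted p = 0.107)). Of 17 iron handling genes 8 were higher and 2 lower in D218G. Aco1, an iron sensor and cytosolic aconitase, was at 10.32, 10.33 and 10.31 in D218G, against 11.34, 11.36 and 11.32 in R216W (difference -1.02 (SE 0.032, adjusted p = 8.16e-12)). The widest rises on that list were in Tfr2, a transferrin receptor (difference 0.94), Flvcr1, a haem exporter (0.93), Steap3, which reduces iron in endosomes (0.68), and Slc11a2, which carries it out of them (0.55). Hmox2, an enzyme that breaks haem down, was also higher (difference 0.49). The main transferrin receptor Tfrc did not pass (difference -0.07 (SE 0.032, adjusted p = 0.159)).

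Red cell membrane genes were lower more often than higher in D218G, 12 against 5 of 24 measured, with a median difference of -0.10. Together 70.8% of the list were called, beside 22% of all genes (10.7% lower and 11.3% higher) and 41.3% of the genes above the median level. Slc14a1, the urea transporter that carries the Kidd blood group, was at 7.87, 7.78 and 8.07 in D218G, against 9.67, 9.78 and 9.73 in R216W (difference -1.82 (SE 0.070, adjusted p = 8.79e-11)). Slc4a1, the anion exchanger band 3, was at 11.30, 11.32 and 11.26 in D218G, against 12.28, 12.31 and 12.27 in R216W (difference -0.99 (SE 0.053, adjusted p = 2.81e-09)). Wild type was near R216W for both, at 9.30 ± 0.011 for Slc14a1 and 12.41 ± 0.045 for Slc4a1 (SD, n = 3). The low levels were not particular to D218G: R216Q was near it, at 7.92 ± 0.10 for Slc14a1 and 11.35 ± 0.068 for Slc4a1. D218Y was lower, at 7.38 ± 0.091 and 6.81 ± 0.11 (SD, n = 3 each). Cd59a, which shields cells from complement, was also lower (difference -1.47, SE 0.083). Dmtn, the skeleton protein dematin (difference 0.64), Icam4 (0.41), Rhd (0.32) and Ermap (0.29) were higher in D218G. Epb42, which joins band 3 to the skeleton, did not pass (difference -0.02 (SE 0.077, adjusted p = 0.926)). Without D218G replicate 3 the counts were 11 lower and 5 higher, and without R216W replicate 1 they were 9 lower and 5 higher. Leaving out any array of the pair gave between 9 and 11 lower.

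**Figure D5:**
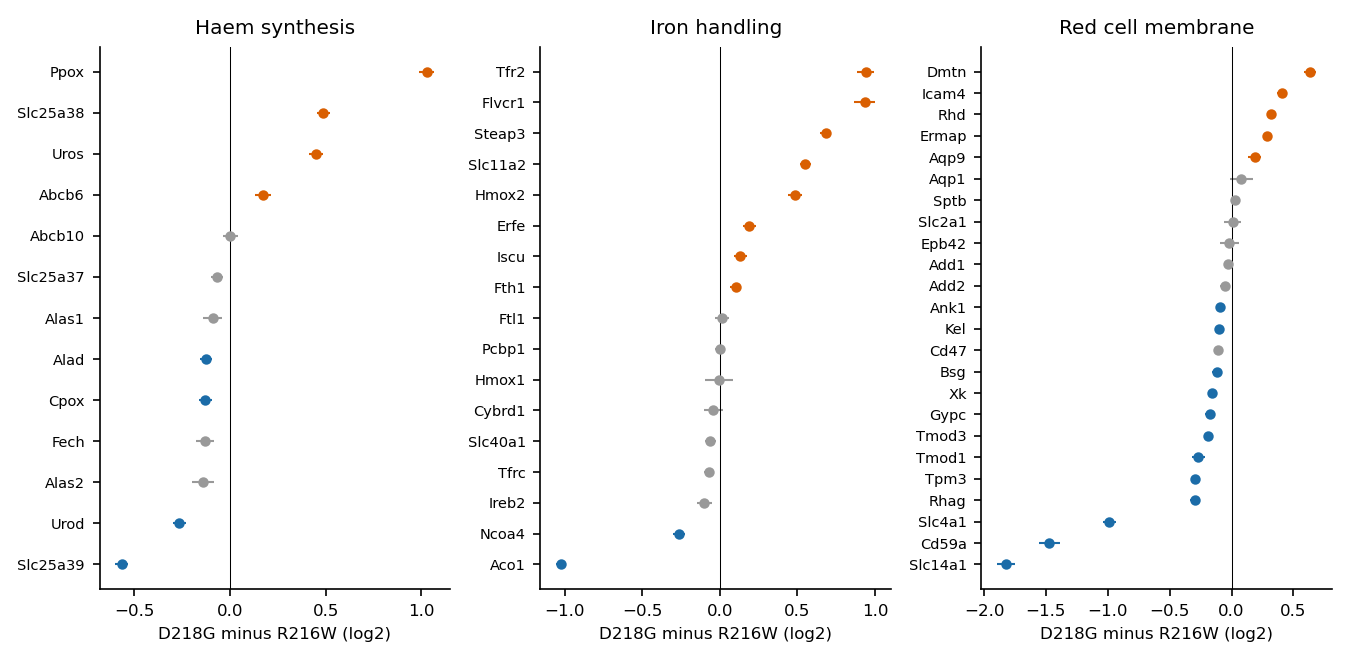
Difference between D218G and R216W (log2, horizontal axes; bars are 1 standard error of the fit) for the measured genes of haem synthesis (13, left), iron handling (17, middle) and the red cell membrane (24, right). Orange marks higher and blue lower in D218G past the threshold, grey not past it; each panel holds genes on both sides, from Ppox at 1.03 to Slc14a1 at -1.82.

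Embryonic globin genes went opposite ways at their separate loci. Hba-x, the embryonic zeta chain of the alpha locus, was at 7.64, 7.64 and 7.59 in D218G, against 9.13, 8.97 and 9.29 in R216W (difference -1.50 (SE 0.071, adjusted p = 7.77e-10)), 2.83-fold lower in D218G. Hbb-bh1, an embryonic chain of the beta locus, was at 11.52, 11.56 and 11.63 in D218G, against 10.61, 10.17 and 10.59 in R216W (difference 1.11 (SE 0.10, adjusted p = 9.3e-07)), 2.17-fold higher in D218G. Every D218G array was thus below the R216W arrays for the zeta gene and above them for Hbb-bh1. Hbb-y, another embryonic beta-locus gene, was higher as well (difference 0.63 (SE 0.11, adjusted p = 0.00044)). Wild type was highest of the 3 lines for Hba-x, at 9.65 ± 0.11, and close to D218G for Hbb-bh1, at 11.40 ± 0.050 (SD, n = 3). R216Q was near D218G for both, at 7.66 ± 0.048 for Hba-x and 11.41 ± 0.17 for Hbb-bh1. D218Y was lower, at 6.65 ± 0.055 and 9.64 ± 0.051 (SD, n = 3 each). Of the 6 globin genes measured 3 were higher and 2 lower, or 83.3% called, beside 22% of all genes. The lower count was 1 whichever of the 6 arrays was left out, since Hbq1b (difference -0.26 (SE 0.085, adjusted p = 0.0431)) lost its call. Globin genes are close copies and may share array signal, and the adult alpha and beta genes were not analysed here because their probe sets carry several symbols.

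Genes of other blood lineages were examined for their levels. The shares called were 50% of megakaryocyte, 11.1% of mast cell and 5.26% of granulocyte and monocyte genes, beside 22% of all genes (11.3% higher and 10.7% lower). Of 18 megakaryocyte genes 4 were higher and 5 lower in D218G. Plek, the platelet protein pleckstrin, was at 8.37, 8.33 and 8.67 in D218G, against 9.82, 9.72 and 9.79 in R216W (difference -1.32 (SE 0.077, adjusted p = 7.37e-09)), and Tubb1, the platelet tubulin, was at 8.51, 8.46 and 8.77 in D218G, against 7.54, 7.57 and 7.60 in R216W (difference 1.01 (SE 0.085, adjusted p = 4.05e-07)). The integrin chain genes Itgb3 (difference -0.92) and Itga2b (-0.24) were lower, and Gp5 (0.62) was higher. The list therefore held wide changes on both sides. Of 18 mast cell genes only Tph1 and Srgn (difference 0.61) passed, and the mean level of that list was low, between 4.93 and 4.99 in D218G and between 5.05 and 5.11 in R216W. Of 19 granulocyte and monocyte genes 1 passed, Cd68 (difference -0.22 (SE 0.067, adjusted p = 0.0293)), with 2 higher and 1 lower without D218G replicate 3, and 0 lower without D218G replicate 1, D218G replicate 2 or R216W replicate 3. None of 14 lymphoid and none of 15 stroma and endothelium genes passed in the limma fit of all 15 arrays.

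Genes of carbon and fat metabolism differed one by one and not as whole pathways. The shares called were 40.9% of glycolysis, 40.9% of low-oxygen response, 55.6% of fatty acid and 13.8% of oxidative phosphorylation genes. Over all genes 22% were called (11.3% higher and 10.7% lower), and 41.3% of the genes above the median level. The glycolysis and low-oxygen shares were thus near that of the brighter genes. Of 22 glycolysis genes 6 were lower and 3 higher. Pdk1, which keeps pyruvate out of the mitochondrion, was at 8.71, 8.63 and 8.95 in D218G, against 10.20, 10.18 and 10.12 in R216W (difference -1.40 (SE 0.078, adjusted p = 4.47e-09)). Lower with it were Aldoc (difference -0.92), Pgam1 (-0.62) and Pkm (-0.57), and higher beside Pfkm were the lactate carrier gene Slc16a1 (0.77) and the hexokinase gene Hk2 (0.52). Several of these genes also respond to low oxygen, and of 22 genes on that list 8 were lower and 1 higher, among the lower ones Vegfa (difference -0.52), P4ha1 (-0.75) and Bnip3 (-0.79). The higher count on that list was 2 without D218G replicate 3. Of 18 fatty acid genes 6 were higher and 4 lower, the lower ones being the elongases Elovl5 (difference -0.82) and Elovl6 (-0.53), the desaturase Scd2 (-0.66) and Acss2 (-0.53). The largest rise there was Elovl1 (difference 0.55). Of 29 oxidative phosphorylation genes 4 were higher and 0 lower, each by less than 0.2.

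Genes of amino acid supply and stress, glutathione and the lysosome held calls on both sides. The shares called were 48.1% of the ATF4 and amino acid list, 34.5% of the glutathione and thioredoxin list and 52.6% of the lysosomal list, beside 22% of all genes (11.3% higher and 10.7% lower) and 41.3% of the genes above the median level. Of 27 members of the ATF4 and amino acid list 11 were higher and 2 lower in D218G. Ddit3, the stress factor CHOP, was at 9.60, 9.66 and 9.64 in D218G, against 8.58, 8.71 and 8.64 in R216W (difference 0.99 (SE 0.046, adjusted p = 6.89e-10)), and the amino acid carrier gene Slc7a5 was at 11.80, 11.86 and 11.80 in D218G, against 11.04, 11.07 and 11.02 in R216W (difference 0.78 (SE 0.032, adjusted p = 2.17e-10)). Atf4 itself was higher (difference 0.34), while its well-known target Asns did not pass (difference -0.01 (SE 0.031, adjusted p = 0.949)). The lower count was 1 without D218G replicate 1. Of 29 glutathione and thioredoxin genes 7 were higher and 3 lower, led by the glutathione transferase gene Gsta4 (difference 1.26 (SE 0.071, adjusted p = 5.52e-09)), with glutathione reductase, Gsr, lower (difference -0.45), the lower count being 1 without D218G replicate 2. Of 19 lysosomal genes 8 were higher and 2 lower, and the cathepsins diverged. Ctsl was at 10.20, 10.19 and 10.28 in D218G, against 8.74, 8.83 and 8.73 in R216W (difference 1.46 (SE 0.037, adjusted p = 1.48e-12)), whereas Ctsc was at 5.64, 5.63 and 5.79 in D218G, against 6.76, 6.99 and 6.92 in R216W (difference -1.21 (SE 0.13, adjusted p = 5.14e-06)). Ctsl was thus higher and Ctsc lower in every D218G array than in any R216W array. The other lower member, Ctsd (difference -0.10 (SE 0.031, adjusted p = 0.0367)), lost its call without any 1 of the 6 arrays other than D218G replicate 3.

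The shares called in the remaining lists were 32% of autophagy, 25% of immediate early and 23.5% of Bcl2 family genes. They were 22.7% of interferon response and 12.5% of heat shock and chaperone genes. Over all genes 22% were called, and 41.3% of the genes above the median level. The immediate early, Bcl2 family and interferon shares were thus near that over all genes. None of these lists reached the share of the brighter genes. Of 25 autophagy genes 5 were lower and 3 higher, led by Bnip3 and Sqstm1 (difference -0.28), and without D218G replicate 3 there were 8 lower. In the Bcl2 family Bid (difference -0.52), Bcl2l1 (-0.30) and Mcl1 (-0.23) were lower and Bcl2 (0.31) was higher, of 17 measured, 2 being higher without R216W replicate 1. Of 24 immediate early genes 4 were lower, led by Zfp36 and Klf6 (difference -0.77), and 2 were higher, Dusp1 (difference 0.75) and Junb (0.39). Of 22 interferon response genes 3 were lower and 2 higher, with Usp18, a brake on interferon signalling, at 7.98, 7.96 and 8.06 in D218G and 6.75, 6.82 and 6.71 in R216W (difference 1.24 (SE 0.053, adjusted p = 3.27e-10)), and 1 was higher without R216W replicate 1. Of 24 heat shock and chaperone genes 1 was lower, Ahsa1 (difference -0.38), and 2 were higher, Hspa9 (0.24) and Cct7 (0.15).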

How the data were processed

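Arrays (Affymetrix, total RNA) were grouped by their titles. The deposited log2 expression values were used unchanged. Partek 6.6 and RMA are named for them per the submitters' processing notes; RMA adjusts background, quantile-normalizes arrays and compresses fold changes of dim genes, and its settings are not given. The table held 28350 probe sets, 21780 with 1 gene symbol. Where a gene had several (996 genes), the one with the highest 15-array mean stood for it, which left 19933 genes with no filter on low values. Differences were fitted with limma 3.58.1 in R 4.3.3 (lmFit, 1 mean per line, 10 residual degrees of freedom, eBayes without trend), and errors are its moderated standard errors (SE). The fit was tested on simulated data. Arrays hold no counts, so their number limits the precision, and a p-value measures the spread between arrays that the titles call biological replicates.

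The members, the 30 gene lists and the naming rule were chosen with earlier results of these data known. The rule named a fixed set of genes; the 15 widest rises and 15 widest falls whose arrays did not overlap, passing over placeholder symbols and small RNAs; and at most 6 called members of a list, by size of change, plus members given as not passing. Called members named beyond these were chosen after their values were seen. Same-numbered D218G and R216W arrays deviated together with correlations of 0.07, -0.07 and -0.02, so replicate numbers were not treated as pairs. Alternatives were other normalizations, a filter at the median level, the 6 arrays alone, other spread models and probe set choices, a stricter threshold, a replicate block and each array left out. Sequences come from RefSeq tables of GRCm38.p6.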

Additional observations from a re-analysis of the deposited data

How the results depend on the processing

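Over the alternatives run, the number of genes called between D218G and R216W ranged from 3131, with each array centred on its median, to 6133, with array weights, and the number at 2-fold or more from 168 to 184. Leaving out an array of the pair in the 15-array fit gave 3809 to 4776 calls, and in those 6 fits no gene called as reported was called in the opposite direction. Cyclic loess turned the larger side, with 2335 higher and 2411 lower. D218G replicate 3 had an array weight of 0.21. The fit of the 5 other arrays of the pair, chosen after seeing the data, called 4845 genes. The Gata1 difference lost its call with arrays centred on their medians (difference 0.10, adjusted p = 0.346), in the 6 arrays alone (0.10, adjusted p = 0.145), in the 5-array fit (0.092, adjusted p = 0.135) and in 3 of the 6 fits that leave out an array of the pair (differences of 0.092 to 0.114 over the 6 fits); the cause was not tested. Differences of 2 genes that never passed turned sign: leaving out an array gave -0.11 to 0.055 for Epb42, above 0 without D218G replicate 2 or R216W replicate 1, and -0.071 to 0.031 for Spi1, above 0 without D218G replicate 1, D218G replicate 2 or R216W replicate 3. Counts of list members moved too: ribosome biogenesis had between 22 and 30 higher, S phase between 6 and 13 higher, mitosis between 4 and 11 higher, oxidative phosphorylation between 1 and 8 higher, autophagy between 4 and 11 lower, and haem synthesis between 2 and 7 lower. With a replicate block 4091 genes were called, 2110 higher and 1981 lower; the numbers do not pair the arrays. Averaging the probe sets of a gene changed no call of a named gene.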

Other observations

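Genes with wide differences sometimes lay next to each other. Among the 175 genes at 2-fold or more there were 7 pairs of consecutive tested genes in the RefSeq gene table, and the members of all 7 pairs moved the same way between D218G and R216W. Higher in D218G were Mir144 with Mir451a (2.61 and 1.78), Decr2 with Nme4 (1.90 and 1.76) and Lcat with Slc12a4 (1.13 and 1.57). Lower in D218G were Vat1 with Rnd2 (-1.43 and -1.74), Hoxc8 with Hoxc6 (-1.17 and -1.29), Il1b with Il1bos (-1.23 and -3.74) and Arhgap21 with Gm13375 (-1.01 and -1.05). These genes were picked after their values were seen. How many such pairs 175 genes at other positions would give, and how often neighbours move the same way, was not tested. The count is therefore a description only.

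Lcat, the enzyme that esterifies cholesterol in plasma, was at 7.55, 7.55 and 7.80 in D218G, against 6.47, 6.56 and 6.48 in R216W, and the potassium chloride cotransporter gene Slc12a4 at 9.56, 9.56 and 9.64 in D218G, against 8.04, 8.02 and 7.99 in R216W. On chromosome 17, where Decr2 and Nme4 lie, Pdia2 (difference 1.65, SE 0.045) and Fam234a (difference 1.37, SE 0.036) were also higher in D218G. The homeobox genes Hoxc8 and Hoxc6 were at 7.27 ± 0.096 and 7.002 ± 0.18 in D218G, against 8.44 ± 0.082 and 8.29 ± 0.12 in R216W, with 7.71 ± 0.069 and 7.60 ± 0.077 in wild type (SD, n = 3 each). Whether probe sets of neighbouring genes share transcripts was not tested.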
